A study of Mus musculus with 44 samples.

Results

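The En1 lineage of normal mammary fibroblasts (NFs) was examined in 12 bulk RNA-seq libraries of polyadenylated RNA from the control mice of a study of mammary fibroblasts and tumours, out of 44 libraries in the whole series. All 12 libraries came from female EN1-Cre;mTmG recipients, bred by crossing EN1-Cre mice to mTmG reporter mice of the FVB/n strain, whose mammary glands had been transplanted with control tissue, taken from donors that carried floxed alleles, of Cdh1 among others, without WapCre. The glands were not cleared of their own epithelium, and the recipients were close to weaning age when they were transplanted. In these mice Cre is produced from the En1 locus, and the mTmG reporter switches a cell and its descendants from membrane tdTomato to membrane GFP once Cre has been active, so GFP marks cells with En1 activity now or in their past. Cells negative for EpCAM, CD49f, CD31 and CD45 were sorted by GFP and by CD26, the surface peptidase encoded by Dpp4, into 4 populations with 3 libraries each. GFP-traced cells without CD26 (En1+) were paired with untraced cells without CD26 (double-), and GFP-traced cells with CD26 (double+) with untraced CD26+ cells (CD26+), within each mouse. This gave 6 pairs from 3 mice, so that both libraries of a pair shared the animal and the CD26 gate and differed in the GFP gate. The labels give a pair of numbers for each mouse, and since the study counts these as single mice, each pair of numbers was taken as 1 replicate. The libraries held between 11483505 and 15240328 counts each (median 13718887).

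Engrailed 1 is a homeodomain transcription factor that patterns the limb bud, the midbrain and the dorsal body wall, where it is made in the central dermomyotome of the somite, a source of dorsal dermis. Zic1 is a zinc finger factor of the dorsal neural tube and the dorsal somite, and it is also known as a gene of brown fat and its precursors. In skin, En1 lineage tracing is known for separating dorsal dermal fibroblasts by their history. Position along the body is remembered by fibroblasts through homeobox and T-box genes, which many adult fibroblasts keep transcribing.

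En1 and Zic1, the genes that mark this lineage, were both higher in the traced cells. En1 read 7.38, 14.9 and 9.09 CPM (read counts relative to the library size after TMM, edgeR's trimmed-mean scaling) in En1+ cells of mice 1, 2 and 3, against 4.14, 4.09 and 4.76 CPM in double- cells. In double+ cells En1 read 15.1, 18.9 and 18.3 CPM, against 7.99, 9.40 and 8.07 CPM in CD26+ cells. The traced libraries were above the untraced libraries of the same CD26 class without overlap, while the CD26+ cells of all 3 mice held En1 RNA at levels above 1 of the En1+ libraries, so that untraced cells were not free of En1 RNA. The log2 fold change over the 6 pairs was 1.12 (SE 0.10, FDR 5.22e-06, higher in 6 of 6 pairs), where FDR is the Benjamini-Hochberg adjusted p of edgeR's quasi-likelihood test over 14292 genes. The same contrast was 1.24 (SE 0.17) in the CD26-negative pairs and 1.04 (SE 0.14) in the CD26-positive pairs.

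Zic1 was present in every traced library and had no count in any untraced one. It was counted 36, 67 and 80 times in the En1+ libraries of mice 1, 2 and 3 and 44, 63 and 80 times in the double+ libraries. The 6 untraced libraries held 0 counts together, which allows a level of up to 0.0370 CPM (3 counts over the group, counting error only). Against that floor the traced libraries, at 4.67 CPM, were at least 126-fold higher, and the bound was 64.1-fold in the CD26-negative and 62.0-fold in the CD26-positive pairs. In bulk libraries a larger share of cells with Zic1 and more Zic1 RNA per cell cannot be told apart. Zic4, a relative that overlaps Zic1 by 3398 bases on the opposite strand of chromosome 9, had 36 counts in traced and 2 in untraced libraries, and reads of the 2 genes cannot be told apart where they overlap because the strand setting of the counting is not given. Zic2 had no counts in the 12 libraries, and En2 had 18 counts in traced and 16 in untraced libraries.

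The DNA just upstream of En1 and Zic1 is shown because both stretches are CpG-rich, with each CG dinucleotide in capitals. The sequences are from RefSeq on GRCm38.p6, read 5' to 3' on the strand of the gene and ended before the gene's start in the count table, at chr1:120602237-120602417 (plus strand) for En1 and chr9:91365811-91366018 (minus strand) for Zic1.
En1: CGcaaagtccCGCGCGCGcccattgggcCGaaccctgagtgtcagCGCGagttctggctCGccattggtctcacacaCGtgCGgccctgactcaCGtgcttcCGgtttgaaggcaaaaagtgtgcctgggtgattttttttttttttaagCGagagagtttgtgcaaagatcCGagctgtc
Zic1: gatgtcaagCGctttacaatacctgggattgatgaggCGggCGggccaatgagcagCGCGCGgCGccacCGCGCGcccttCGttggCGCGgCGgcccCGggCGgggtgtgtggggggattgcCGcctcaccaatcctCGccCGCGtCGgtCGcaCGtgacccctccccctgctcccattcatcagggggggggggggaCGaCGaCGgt
The En1 stretch holds 15 CG in 181 bases (8.29 per 100 bases) and the Zic1 stretch 26 in 208 (12.5 per 100 bases), against a median of 2.4 per 100 bases over the 250 bases before the start in 32851 RefSeq promoter windows and 6.0 in the 13722 windows of genes tested here. The Zic1 stretch lies in an intron of a Zic4 transcript on the opposite strand in GENCODE M21, and no annotated transcript covers the En1 stretch. TAATTA, the core that homeodomain proteins such as Engrailed recognise and its own reverse complement, was searched in those 250 bases and is in neither gene's window. It is in 4.84% of all windows and 2.49% of those of genes tested, in 1 of the 175 windows of genes called higher and in 12 of the 358 windows of genes called lower in the traced cells.

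The gene at the reporter locus differed with GFP, and the gene behind the CD26 gate did not pass the test. Gt(ROSA)26Sor, the non-coding gene at the locus that carries mTmG, read 6.83, 8.47 and 5.53 CPM in En1+ against 2.92, 3.87 and 3.26 CPM in double- cells. In double+ cells it read 7.98, 5.86 and 4.61 CPM, against 2.29, 3.71 and 2.39 CPM in CD26+ cells. Traced libraries were above untraced ones within each pair, with a log2 fold change of 1.08 (SE 0.13, FDR 9.16e-05). Thumpd3, which overlaps it on the opposite strand, had a log2 fold change of -0.01 (SE 0.08, FDR 0.973), and reads of the 2 genes cannot be told apart where they overlap. Dpp4 read 272, 864 and 542 CPM in double+ and 274, 832 and 535 CPM in CD26+ cells, and 2.07, 7.58 and 6.11 CPM in En1+ against 1.46, 7.38 and 6.26 CPM in double- cells. Its log2 fold change between traced and untraced cells was 0.03 (SE 0.04, FDR 0.834), with a higher value in 4 of 6 pairs.

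**Figure D1:**
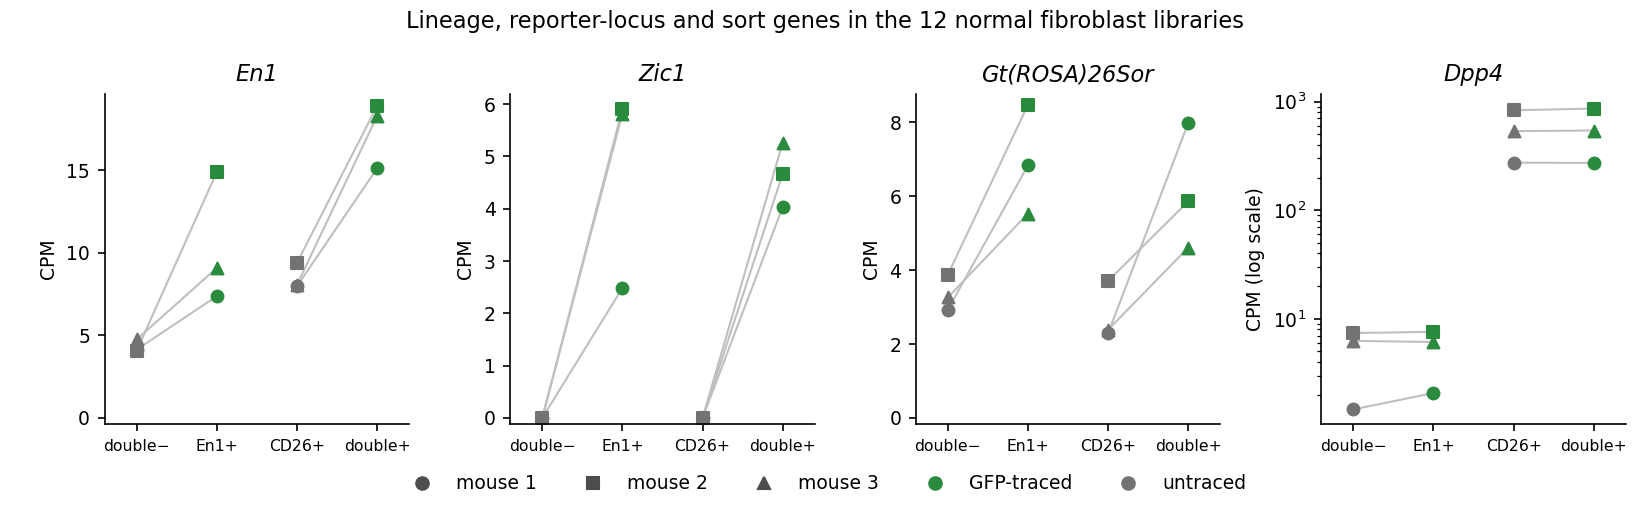
Level of En1, Zic1, Gt(ROSA)26Sor and Dpp4 (CPM, log scale for Dpp4) in the 12 libraries, by sorted population, with a symbol for each mouse, green for GFP-traced and grey for untraced cells, and a line joining the 2 libraries of a pair. Zic1 is at 0 in the 6 untraced libraries and between 2.48 and 5.91 CPM in the traced ones, while Dpp4 follows the CD26 gate and not GFP.

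Beyond these markers the En1 lineage was set apart by a moderate number of mostly small differences, more often lower than higher over the 6 pairs. The excess of lower calls was in the CD26-negative pairs (101 higher, 373 lower) and not in the CD26-positive pairs (102 higher, 87 lower). Over the 6 pairs, 556 of 14292 genes were called at an FDR under 0.05 (3.89%), of which 185 were higher (1.29%) and 371 lower (2.6%) in traced cells. The median log2 fold change was 0.25 among genes called higher and -0.63 among those called lower, and 29 called genes passed an absolute log2 fold change of 2 (0.203%), namely Zic1 upwards and 28 genes downwards. The same sign in all 6 pairs was found for 151 of the 185 and 274 of the 371 genes, against 9.56% of all genes tested. The calls came from these same 6 pairs, so a share above that of all genes follows from the selection. For scale, CD26 separated 6001 genes (42%) in a fit with mouse, CD26 and GFP as terms, in which GFP called 41 (0.287%).

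These counts moved with the block and with the mice used. With CD26 and GFP as terms and no replicate block, 2 genes were called (Zic1 and Mcpt4), with mouse as the only block 41, and with counts summed per mouse and GFP class the count was 284. It was 267 without mouse 1, 558 without mouse 2 and 267 without mouse 3. All called genes that could be tested kept their sign under each of the 10 alternatives.

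A set of 21 genes, 6 higher and 15 lower, was called under all 9 alternatives that kept a block, a set drawn up after the values were seen. Among those higher in traced cells were Zic1, Edil3, En1, Gt(ROSA)26Sor and Sox11. Those lower were Sim2, Hpse2, Tbx1, Pappa2, 5033428I22Rik, Vwf, Bdnf, Irx5, Zfp536, Epha3, Irx2, Lsamp, Sfrp2, Adh7 and Prkar1b. Edil3, an integrin-binding matrix protein, read 12.7, 6.53 and 10.7 CPM in En1+ against 4.47, 2.58 and 3.98 CPM in double- cells, and 34.3, 8.31 and 21.1 CPM in double+ against 10.7, 2.76 and 8.84 CPM in CD26+ cells. It was higher in every pair, with a log2 fold change of 1.47 (SE 0.08, FDR 1.88e-08). Pappa2, a protease that cleaves IGF-binding proteins, read 1.45, 2.38 and 1.09 CPM in En1+ against 6.01, 9.75 and 2.09 CPM in double- cells, and 1.74, 2.97 and 0.987 CPM in double+ against 9.09, 12.0 and 4.70 CPM in CD26+ cells. Its log2 fold change was -2.01 (SE 0.14, FDR 1.99e-07), and the smallest gap was that of the CD26-negative pair of mouse 3. Hpse2, a heparanase relative that binds heparan sulphate, reached 4.21 to 7.41 CPM in CD26+ and 0.825 to 1.18 CPM in double+ cells, with a log2 fold change of -2.68 (SE 0.23, FDR 1.72e-06). Epha3, an ephrin receptor, was lower by a log2 fold change of -0.81 (SE 0.08, FDR 5.82e-06), and Lsamp, a membrane-anchored adhesion protein, by -0.73 (SE 0.05, FDR 1.99e-07).

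**Figure D2:**
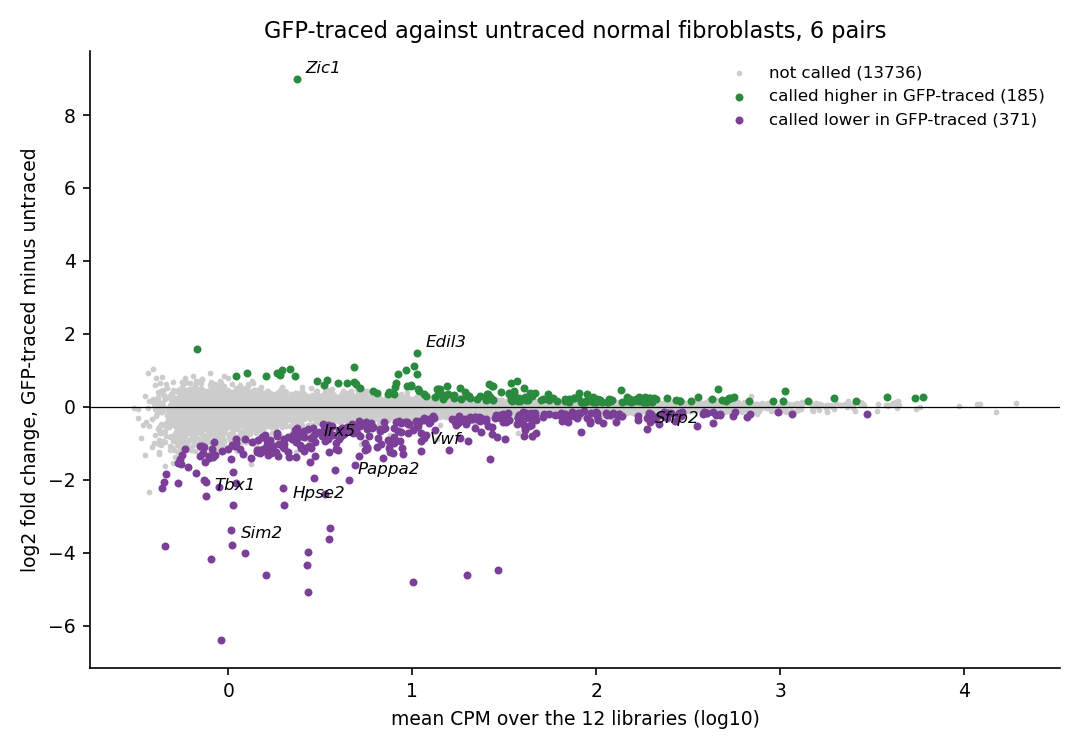
Log2 fold change of GFP-traced minus untraced NFs over 6 pairs against the mean level of each gene (log10 CPM), for 14292 genes, with the 185 genes called higher in green and the 371 called lower in purple. Zic1 stands at the top, where its fitted value is no bound because the untraced libraries had no count, and Sim2, Hpse2, Tbx1 and Pappa2 are among the labelled lower genes.

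Somite factors went both ways in the traced cells. Of the 17 somite and dermomyotome transcription factors tested, of 32 listed, 7 were higher (41.2%, against 1.29% of all genes), 3 lower (17.6%, against 2.6%) and 7 not called, with a median log2 fold change of 0.20 against 0.00010 over all genes. The 7 higher include En1, whose locus drives Cre, and Zic1, and without these 2 genes 5 of 15 were higher and 3 lower, with a median of 0.10. The 15 untested members, Pax3, Pax7 and Pax1 among them, had too few counts. This list and the gene lists below were chosen with earlier results of these data known. Their shares set against all genes are therefore descriptive and no independent support. Six4, a homeodomain factor of the dermomyotome and muscle precursors, read 2.07, 1.94 and 2.40 CPM in En1+ against 0.894, 1.36 and 2.22 CPM in double- cells, and 2.02, 5.41 and 3.95 CPM in double+ against 0.813, 2.15 and 2.32 CPM in CD26+ cells. It was higher in all 6 pairs (log2 fold change 0.83, SE 0.18, FDR 0.0115), by the least in the CD26-negative pair of mouse 3. Its cofactor Eya2 was higher by 0.39 (SE 0.11, FDR 0.0468) in 4 of 6 pairs. Eya2 was called in the CD26-positive pairs at 0.69 and was at 0.02 in the CD26-negative ones, but the difference between the classes did not pass (0.67, SE 0.13, FDR 0.0901). Meox1 (0.34) and Msc (0.20), which are made in early somites and in muscle precursors, were higher by small margins, and both lost their call when counts were summed per mouse. Six4 was not called without mouse 1 or without mouse 2, and Eya2 lost its call with each mouse left out in turn.

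Sim2, a bHLH-PAS factor, went the other way. It was counted 27, 77 and 29 times in double- and 1, 3 and 0 times in En1+ cells, and 14, 10 and 5 times in CD26+ against 0, 4 and 2 times in double+ cells, so that the traced and untraced libraries did not overlap. Its log2 fold change was -3.78 (SE 0.43, FDR 4.38e-05). Foxc1 (-0.55) and Tbx18 (-0.18) were the other somite factors called lower, and Tbx18 was called again under 1 of 10 alternatives and not on counts summed per mouse. Foxc1 lost its call without mouse 2 and without mouse 3.

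Sox11, a SOX factor of embryonic mesenchyme and neurons outside the lists, was higher in each pair and read 15.2, 10.4 and 8.22 CPM in En1+ against 8.94, 4.73 and 4.50 CPM in double- cells (log2 fold change over the 6 pairs 0.90, SE 0.07, FDR 1.67e-06).

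Of 47 transcription factors of body wall and limb mesenchyme that were tested, 8 were lower in traced cells (17%, against 2.6% of all genes), 2 were higher (4.26%, against 1.29%) and 37 were not called, with a median of -0.08. Both Iroquois clusters held lower genes. Irx1 read 0.759, 2.91 and 1.75 CPM in En1+ against 2.44, 4.09 and 6.19 CPM in double- cells, and 3.76, 13.6 and 7.90 CPM in double+ against 9.32, 23.5 and 14.5 CPM in CD26+ cells (log2 fold change -1.01, SE 0.13, FDR 0.000106). Irx2, its neighbour, was lower by -0.77 (SE 0.09, FDR 7.68e-05). In the other cluster Irx5 was lower by -0.96 (SE 0.13, FDR 0.000298) and Irx3 by -0.61 (SE 0.13, FDR 0.0128), Irx3 in 5 of 6 pairs. Irx3 was not called without mouse 1 or without mouse 3, while Irx1, Irx2 and Irx5 kept their call with each mouse left out. All 4 Iroquois genes that could be tested were thus lower. Epithelial (12 of 14) and skeletal muscle markers (7 of 11) were lower in traced cells too, and their part in the lower genes of this list was not tested.

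Several T-box genes were lower as well. Tbx3, a factor needed to form the mammary bud and known from ulnar-mammary syndrome, read 77.9, 20.5 and 53.0 CPM in En1+ against 109, 33.8 and 86.7 CPM in double- cells, and 30.4, 11.7 and 16.5 CPM in double+ against 39.8, 15 and 22.4 CPM in CD26+ cells. The difference within pairs was smaller than that between mice, and all 6 pairs went down (log2 fold change -0.54, SE 0.05, FDR 8.09e-06). Tbx5, the forelimb factor, was lower by -0.40 (SE 0.07, FDR 0.0027), and Tbx4, the hindlimb factor, by -1.86 (SE 0.39, FDR 0.00922), at no more than 1.51 CPM in any library. Tbx3 and Tbx5 kept their call with each mouse left out in turn and Tbx4 lost it each time, while on counts summed per mouse Tbx4 kept its call and Tbx5 lost it. Tbx1, a factor of pharyngeal and muscle tissue that was not on the list, was counted 18 times in traced and 106 times in untraced libraries (log2 fold change -2.45, SE 0.32, FDR 0.00021). Tbx15 (0.13), Tbx2 (-0.13), Prrx1 (-0.02) and Twist1 (0.00) did not pass the test. Ebf3 (0.39, FDR 0.000735) and Dlx5 (1.59, FDR 0.0141, higher in 5 of 6 pairs) were the 2 members higher in traced cells. Dlx5 read 1.01, 2.30 and 2.11 CPM in double+ against 0.0739, 0.776 and 0.702 CPM in CD26+ cells and at most 0.364 CPM in the CD26-negative libraries, and it was not called without mouse 1 or without mouse 3.

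Hox genes encode position along the trunk. Of 24 tested, none was higher, 3 (12.5%, against 2.6% of all genes) were lower and 21 were not called, with a median of -0.05. Hoxb9 (-2.20, FDR 0.0087), Hoxb6 (-0.66, FDR 0.0261) and Hoxd8 (-0.41, FDR 0.0236) were lower in all 6 pairs, and of these Hoxb9 alone kept its call on counts summed per mouse, though not without mouse 3. Hoxb9 was highest, at 4.66 CPM, in the double- library of mouse 2, where skeletal muscle genes were highest too. It was at -3.87 in the CD26-negative and -0.84, not called, in the CD26-positive pairs, and the difference between the classes did not pass (FDR 0.236). Hoxc6, which was read in every library, was at 0.03 (FDR 0.839).

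**Figure D3:**
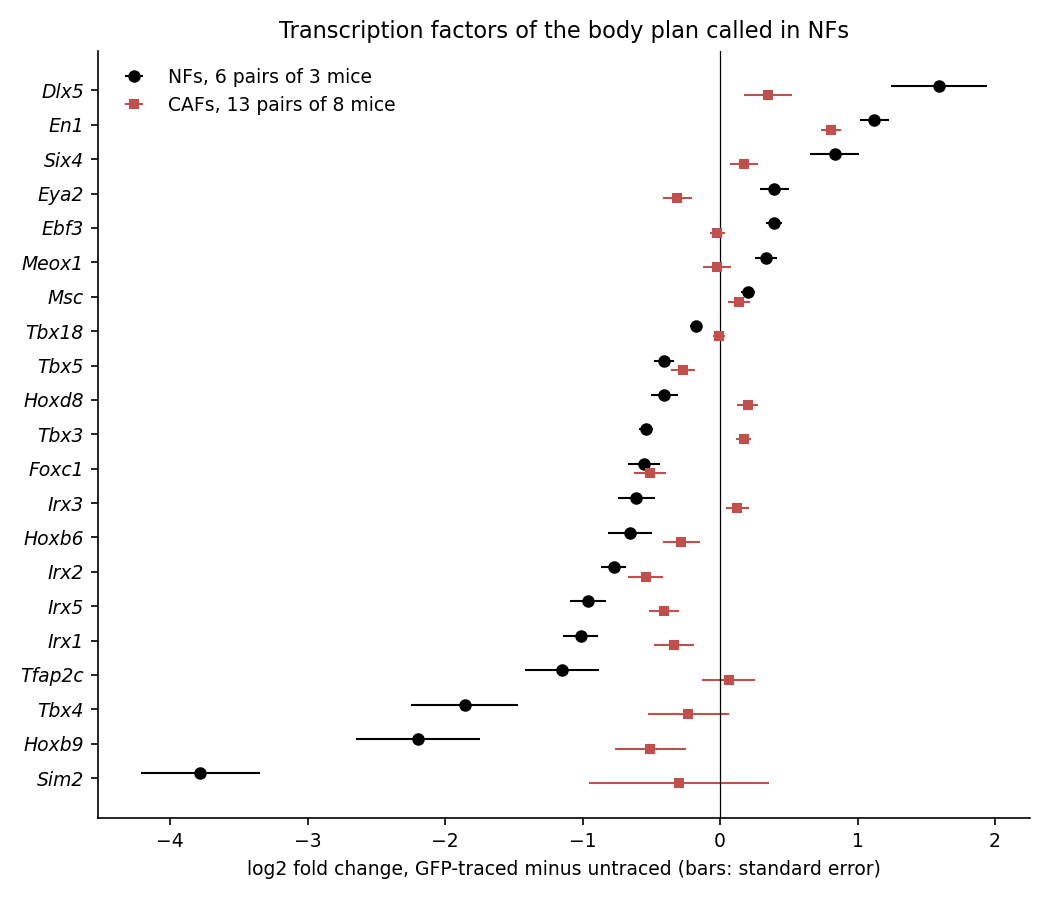
Log2 fold change of GFP-traced minus untraced cells (points, with bars of 1 SE) for 21 listed transcription factors that were called in NFs, Zic1 not drawn, in NFs (black circles, 6 pairs of 3 mice) and in CAFs (red squares, 13 pairs of 8 other mice). En1, Irx2, Irx5 and Foxc1 were called in both, while Tbx3 was at -0.54 in NFs and 0.17 in CAFs.

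Among signalling genes, 8 of 40 Wnt pathway genes tested were lower in traced cells (20%, against 2.6% of all genes), 1 was higher and 31 were not called (median -0.01). Sfrp2, a secreted frizzled-related inhibitor, read 89.5, 77.5 and 88.4 CPM in En1+ against 133, 128 and 147 CPM in double- cells, and 179, 221 and 246 CPM in double+ against 275, 322 and 341 CPM in CD26+ cells. Traced and untraced libraries did not overlap within a class, and the log2 fold change was -0.60 (SE 0.04, FDR 1.17e-07). Sfrp1 (-0.24) and Wif1 (-0.79), each in 5 of 6 pairs, and Apcdd1 (-0.25, 6 of 6), which also restrain Wnt signals, were lower, as were the ligands Wnt2b (-0.65), Wnt4 (-0.65) and Wnt10a (-1.66). On counts summed per mouse Sfrp2, Wnt2b and Wnt10a kept their call, while Sfrp1, Wif1, Apcdd1 and Wnt4 lost it. Sfrp2 and Apcdd1 were called without each mouse in turn, while Wnt2b, Wnt10a, Wnt4 and Wif1 were not called without mouse 1 or without mouse 3, nor Sfrp1 without mouse 1 or without mouse 2. Frzb, another secreted frizzled-related inhibitor, which is not on the Wnt list, was higher in all 6 pairs (0.72, SE 0.14, FDR 0.00455) and was not called without mouse 1 or without mouse 3. Lgr5, a receptor of R-spondins, was lower in all 6 pairs (-1.51, SE 0.21, FDR 0.000376), with its highest level, 14.0 CPM, in the double- library of mouse 2. The coreceptor Lrp5 was the member called higher (0.14), a call lost on counts summed per mouse, and the target gene Axin2 was at -0.18 and not called. Epithelial markers were lower in traced cells too (12 of 14), as were skeletal muscle markers (7 of 11), highest in the same double- library as Lgr5, and their part in the Wnt genes called lower was not tested.

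Of 33 BMP and hedgehog pathway genes, 1 was higher (3.03%, against 1.29% of all genes), 2 were lower (6.06%, against 2.6%) and 30 were not called (median -0.03). Gdf10, a BMP3-related ligand, was lower in all 6 pairs (-0.48, SE 0.07, FDR 0.000478). Bmp3, a BMP-family ligand, was higher in 5 of 6 pairs (0.63, SE 0.10, FDR 0.000993). It read 21.5, 101 and 61.0 CPM in double+ against 15.3, 49.2 and 42.0 CPM in CD26+ cells, and between 3.30 and 5.20 CPM in the 6 CD26-negative libraries. The hedgehog receptor gene Ptch1 was at -0.05 and Gli1 at -0.20, neither called. Bdnf, a neurotrophin of the set of 21 above, read 3.52, 3.09 and 3.35 CPM in En1+ against 6.82, 5.38 and 7.56 CPM in double- cells, with a log2 fold change over the 6 pairs of -1.17 (SE 0.13, FDR 3.99e-05).

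Collagens went both ways in traced cells. Of 21 fibrillar and network collagen genes, 6 were higher (28.6%, against 1.29% of all genes), none was lower and 15 were not called, with a median of 0.12. The basement membrane genes Col4a1 (0.27, FDR 0.00193) and Col4a2 (0.26, FDR 0.0037) were higher in all 6 pairs, as were Col6a3 (0.23, FDR 0.000752) and Col26a1 (0.50, FDR 0.00114). Col5a3 (0.15) and Col8a1 (0.55) were higher in 5 of 6, and Col5a3 and Col26a1 lost their call on counts summed per mouse. Col8a1 and Col26a1 were not called without mouse 1, and Col5a3 lost its call with each mouse left out in turn. Of 19 collagen genes tested outside that list, looked up after their values were seen, 7 were lower (36.8%, against 2.6% of all genes), none was higher and 12 were not called, with a median of -0.18. These were Col25a1 (-0.82, FDR 1.99e-07), Col28a1 (-0.82), Col4a6 (-0.63), Col9a3 (-0.49) and Col27a1 (-0.17), lower in all 6 pairs, and Col7a1 (-0.32) and Col17a1 (-0.84), lower in 5 of 6. Of these 7, Col25a1 and Col28a1 kept their call on counts summed per mouse. Epithelial markers were also lower in traced cells (12 of 14, median -1.11), and their part in these 7 was not tested. Col1a1 (0.07), Col1a2 (0.08) and Col3a1 (0.11) did not pass. Of 44 other matrix and fibrosis genes, Sparcl1 (0.44, FDR 3.2e-05), Tnc (0.49, FDR 0.00872, in 4 of 6 pairs) and Fap (0.25, FDR 0.00114) were higher, Ccn5 was lower (-0.51, FDR 0.00859, in 4 of 6 pairs) and 40 were not called, with Acta2 at 0.09 and Postn at -0.01. This was 6.82% higher and 2.27% lower, against 1.29% and 2.6% of all genes. Tnc was not called without mouse 1, without mouse 3 or on counts summed per mouse.

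Of 16 papillary and reticular dermis genes tested, which separate layers of dermal fibroblasts, 5 were lower (31.2%, against 2.6% of all genes) and 1 was higher (6.25%, against 1.29%), with a median of -0.06. Crabp1, which binds retinoic acid, ranged over the mice from 25.4 to 190 CPM in En1+ and from 52.3 to 275 CPM in double- cells, and was lower in the traced library of every pair (-0.71, SE 0.06, FDR 1.86e-06). Ntn1 (-0.44, FDR 1.57e-05) and Plac8 (-0.23, a call lost on counts summed per mouse) were lower too, and Gpx3 was higher (0.28, FDR 0.00515). Of 27 genes of progenitor and parenchymal fibroblasts, Penk (-0.32), Cxcl12 (-0.20), Vit (-0.43) and Gdf10 were lower, Lpl was higher (0.24) and 22 were not called, with Pi16 at -0.15 and Cd248 at -0.04. These shares were 14.8% lower and 3.7% higher, against 2.6% and 1.29% of all genes. Cxcl12 and Plac8 were not called without mouse 1 or without mouse 3, nor Gpx3 without mouse 1. In the brown fat list of 9 tested genes, Zic1 was higher, Dio2 lower (-0.41, FDR 0.000163) and 7 not called. Each direction was 11.1% of that list, against 1.29% higher and 2.6% lower over all genes. Zic1 was also counted in the somite list. Ucp1 and Cidea, defining genes of brown adipocytes, had at most 4 and 2 counts in any library.

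Of 12 fibroblast markers none was called, their median was 0.05, and Pdgfra (-0.01), Dcn (0.04) and Thy1 (-0.01) were among them, with summed levels between 35933 and 70337 CPM in every library. At an unadjusted p under 0.05 edgeR gave 1 of the 12, against 2275 of all 14292 genes. Of 12 proliferation genes none was called (0 at an unadjusted p under 0.05, median -0.05). Of 18 dissociation stress genes Socs3 was lower (-0.15, 5.56% of the list, not called on counts summed per mouse, median of the list 0.01). Over all genes 1.29% were called higher and 2.6% lower, so 0 of 12 is near that rate. Lists of other cell types did differ, although the sort gated against EpCAM, CD31 and CD45.

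Epithelial genes were lower in traced cells for 12 of 14 markers tested (85.7%, against 2.6% of all genes, median -1.11), Krt8, Krt18, Krt5, Krt14, Epcam and Cdh1 among them. Their summed level was 17.0, 30.3 and 124 CPM in En1+ against 124, 74.0 and 265 CPM in double- cells, and 51.0, 101 and 124 CPM in double+ against 71.6, 109 and 165 CPM in CD26+ cells, with Krt19 the most abundant gene. Skeletal muscle genes were lower for 7 of 11 tested (63.6%, median -2.22). Their summed level was 109, 631 and 108 CPM in double- against 44.3, 31.7 and 65.7 CPM in En1+ cells and between 18.4 and 93.1 CPM in the CD26-positive libraries, so the library that stood apart was the double- one of mouse 2. Myh4 was the most abundant member, and the muscle stem cell genes Pax7, Myod1 and Myf5 had at most 4 counts in any library. Ckm, the muscle creatine kinase, read 10.2, 96.9 and 8.54 CPM in double- and at most 3.44 CPM elsewhere.

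Endothelial genes were lower for 4 of 11 (36.4%, against 2.6% of all genes; Pecam1, Cdh5, Tie1 and Vwf, median of the list -0.73), with sums of 41.1, 70.6 and 70.9 CPM in En1+ against 82.4, 106 and 107 CPM in double- cells, and Tek the most abundant. Immune genes were lower for 4 of 8 (50%; Ptprc, Cd14, Lyz2 and Cd74, median -0.51), with sums of 24.6, 37.4 and 29.7 CPM in En1+ against 34.6, 62.4 and 46.4 CPM in double- cells. Of these calls Ptprc and Cd14 were lost on counts summed per mouse, as were those of Scn7a and Trp63 among the lists that follow. Among genes picked after their values were seen, the mast cell protease gene Mcpt4 had 66, 31 and 48 counts in the double- libraries and at most 1 in any other. Pericyte and smooth muscle genes gave 3 lower (Des, Kcnj8 and Abcc9) and 1 higher (Notch3, 0.36) of 12. These were 25% lower and 8.33% higher, against 2.6% and 1.29% of all genes. Schwann and neural genes gave Sox10 (-1.25) and Scn7a (-0.14) lower (22.2%) and Ngfr higher (0.64, FDR 0.000295, 11.1%) of 9. Of 9 adipocyte genes Fabp4 was higher (0.38, 11.1% of the list) and Adipoq had too few counts to test. Of 5 skin epithelial genes 1 (Trp63, 20%) and of 2 mesothelial genes none was lower. The mesothelial sums, led by Krt19, which is also on the epithelial list, were 2.76, 4.59 and 8.73 CPM in En1+ against 18.0, 8.67 and 15.5 CPM in double- cells, and 1 of the 2 genes, Krt19, was called lower in the CD26-negative pairs. In the CD26-positive pairs 0 epithelial, 0 skeletal muscle, 0 immune and 1 endothelial marker (Vwf) were called lower by edgeR, against 14, 8, 3 and 5 in the CD26-negative pairs. Over all 14292 genes 87 were called lower in the CD26-positive and 373 in the CD26-negative pairs. The difference between the classes was not tested for these lists. At an unadjusted p under 0.05 by edgeR, 7 of 14 epithelial, 1 of 11 skeletal muscle and 1 of 8 immune markers were lower in the CD26-positive pairs. Over all genes 1355 of 14292 passed that threshold there, in either direction. The epithelial, endothelial, immune and skeletal muscle sums were lower in double+ than in CD26+ cells of each mouse. The endothelial sums were 180, 549 and 352 CPM in double+ against 238, 575 and 400 CPM in CD26+ cells, and the immune sums 37.6, 36.7 and 28.6 CPM against 43.8, 38.8 and 32.2 CPM. Of the 371 genes called lower, 33 were on the lists of other cell types, as were 80 of all 14292 tested and 3 of the 185 called higher. Beyond these values, the part of other cell types in the genes called lower was not tested.

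**Figure D4:**
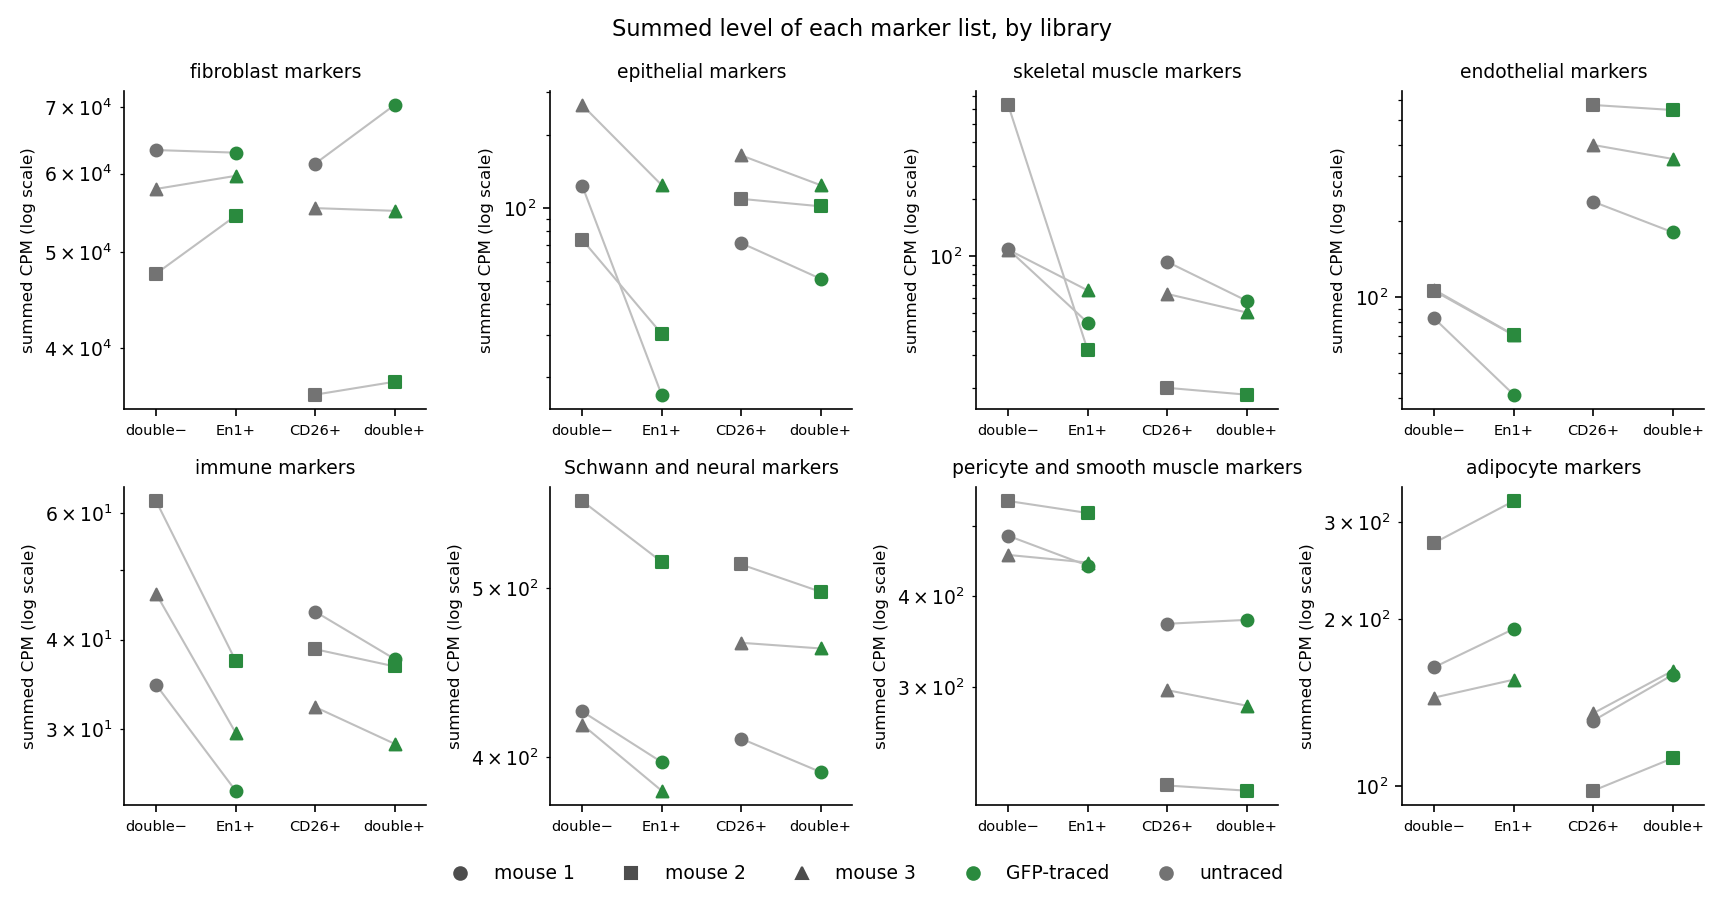
Summed CPM of 8 marker lists (log scale) in the 12 libraries, by sorted population, with a symbol for each mouse and a grey line joining the 2 libraries of a pair. Epithelial, skeletal muscle, endothelial and immune sums are higher in double- than in En1+ cells of every mouse, with skeletal muscle highest, at 631 CPM, in mouse 2, while the fibroblast sums stay between 35933 and 70337 CPM.

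The lineage contrast was then read in each CD26 class. Between En1+ and double- cells 474 genes were called (3.32%), 101 higher and 373 lower, and between double+ and CD26+ cells 189 (1.32%), 102 higher and 87 lower. The first count was 283 without mouse 1, 444 without mouse 2 and 218 without mouse 3, and the second was 93, 262 and 56. Both classes called 89 genes, 18.8% of the first list and 47.1% of the second, and all 89 had the same sign, 36 higher and 53 lower. Among these 53 shared lower genes 2 were on the lists of other cell types, Vwf and Abcc9, as were 80 of all 14292 genes tested.

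The shared genes held Zic1, En1, Edil3 and Sox11 on the higher side. Those given next were chosen after their values were seen, apart from Olfm2. Olfm2, a secreted olfactomedin protein, was higher by 0.63 and 0.85 in the CD26-negative and CD26-positive pairs, the fatty acid transporter gene Cd36 by 0.44 and 0.62, Angptl1 by 0.56 and 0.60, Aspn, a small leucine-rich proteoglycan, by 0.50 and 0.43, and Fgf10, the growth factor of mammary and limb buds, by 0.24 and 0.23. On the lower side were Enpp2, the lysophospholipase that makes lysophosphatidic acid (-0.56 and -0.51), Nt5e, the ectoenzyme CD73 (-0.54 and -0.44), Igfbp2 (-0.94 and -0.75), Ereg, an EGF-family ligand (-0.74 and -0.67), Ltbp2 (-0.77 and -0.88) and Flt1 (-0.97 and -0.81).

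The difference between the classes was itself called for 14 genes (0.098%). Muscle genes were 5 of them, a grouping for which no list was tested. Atp2a1 was at -5.14 in the CD26-negative and 0.11 in the CD26-positive pairs (difference 5.26, SE 0.85, FDR 0.0224), and Acta1, Mylpf, Tnnt3 and Trdn, which encode parts of the contractile and calcium release apparatus, were also among the 14. In double- cells of mice 1, 2 and 3 Atp2a1 read 19.5, 197 and 11.7 CPM and Acta1 33.5, 276 and 26.5 CPM. The double- library of mouse 2 thus stood apart for both genes. Cd24a was at -1.34 and 0.07 (difference 1.41, SE 0.19, FDR 0.0049) and Padi2 at -2.86 and 0.40 (difference 3.26, FDR 0.00509). Akr1c14, a hydroxysteroid dehydrogenase, was lower in double+ than in CD26+ cells (-0.57) and at 0.05 in the CD26-negative pairs (difference -0.62, SE 0.07, FDR 0.00247), and Fads6 was higher by 0.90 in the CD26-positive and 0.30 in the CD26-negative pairs (difference 0.60, FDR 0.0246). CT010467.1, annotated as ribosomal RNA, was at 0.59 and -0.03 (difference -0.62, FDR 0.0049).

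**Figure D5:**
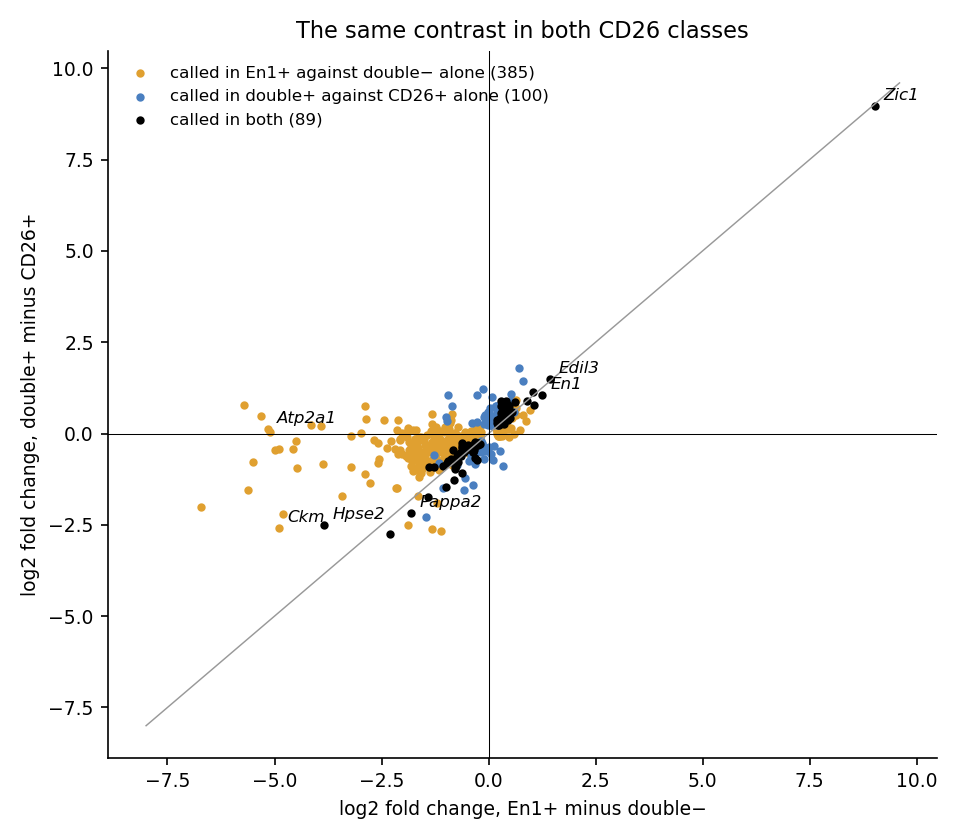
Log2 fold change of the GFP contrast in the CD26-positive pairs (double+ minus CD26+, vertical) against that in the CD26-negative pairs (En1+ minus double-, horizontal) for genes called in either class, with the diagonal drawn in grey and genes called in 1 class alone in orange (CD26-negative) or blue (CD26-positive). The 89 genes called in both (black) share their sign, Zic1, Edil3, Hpse2 and Pappa2 among them, and the muscle genes Ckm and Atp2a1 lie far to the left.

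The same GFP contrast in cancer-associated fibroblasts (CAFs), from 26 libraries that form 13 pairs of 8 other mice, addressed whether the lineage differences recur in tumours. These EN1-Cre;mTmG recipients carried WB1P transplants, in which WapCre deletes Brca1 and Trp53, or WB1P-Myc transplants, which also overexpress Myc. The comparison gave a view of the lineage without shared libraries. En1 was higher in the traced library of 13 of 13 CAF pairs (log2 fold change 0.81, SE 0.07, FDR 3.52e-07) and Gt(ROSA)26Sor in 13 of 13. Zic1 was higher in 12 of 13, with a median of 1.18 CPM in traced CAFs (range 0 to 2.97), and 2 of 13 untraced CAF libraries held a Zic1 count, of 1 each. In CAFs 337 of 15392 genes were called (2.19%). Of the 185 genes called higher in NFs 108 (58.4%) were above 0 in CAFs, and of 369 called lower 284 (77.0%) were below 0, while 55.9% of all genes shared their sign. The call itself was shared by 72 of 554 genes, 67 with the same sign, Irx2 (-0.54 in CAFs), Irx5 (-0.41), Gdf10 (-0.77), Ntn1 (-0.42), Foxc1 (-0.51) and Penk (-0.28) among them.

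The difference of the contrast between NFs and CAFs was called for 31 genes (0.201%). Edil3 was at 1.47 in NFs and 0.38 in CAFs of the joint fit (difference 1.10, SE 0.11, FDR 9.7e-06), and Sox11 at 0.90 and 0.04 (difference 0.87, SE 0.15, FDR 0.0123). Tbx3 was at -0.53 and 0.17 (difference -0.70, SE 0.10, FDR 0.00158), Pappa2 at -0.59 in CAFs (difference -1.41, FDR 0.0336), and Lgr5 at -1.53 and 0.16 (FDR 0.0064). Vwf, the endothelial gene, was at -1.19 and 0.31 (FDR 0.00321), and the muscle genes Des, Tnni2 and Ldb3 were among those lower in traced NFs and near 0 in CAFs. For En1 the difference was 0.32 (SE 0.14, FDR 0.568) and for Gt(ROSA)26Sor -0.02 (SE 0.23, FDR 0.999). Without mouse 1, 2 or 3 of the NFs the count of 31 became 8, 5 or 9.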

How the data were processed

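RNA of sorted mammary fibroblasts was made into stranded, poly(A)-selected TruSeq libraries and sequenced as paired ends. The deposited table holds whole-number read counts per gene for 55486 genes, not normalized. Per the labels, the authors' processing named HISAT2 2.2.1 and GRCm38, while the counter, the annotation and the strand setting are not given in the sources used here. The 12 control libraries held 11483505 to 15240328 counts each. The row without a gene held 0 counts.

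Libraries were grouped by GFP and CD26 as labelled and paired by mouse within each CD26 class. Libraries of one mouse deviated together from their group means (pairwise correlation 0.615 to 0.849), so the pair of mouse and CD26 class was used as a block. The 6 pairs came from 3 mice, and p-values treat them as separate, so counts summed per mouse were fitted as an alternative. No 2 libraries of a group were near-copies (lowest chi-square per degree of freedom 20.3). Counts were filtered by expression, scaled by TMM and tested with edgeR 4.0.16 quasi-likelihood in R 4.3.3, with Benjamini-Hochberg adjustment (FDR) over 14292 genes and a threshold of 0.05. The test was checked on simulated data. CAFs were fitted jointly with NFs over 15392 genes. Signs per pair used log2 CPM with 0.5 added to each count before scaling.

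Named were En1, Zic1, Dpp4 and Gt(ROSA)26Sor, the 15 largest changes in each direction with the same sign in all 6 pairs and at least 1 CPM, the 5 smallest p in each direction of each class and difference, and list members. The members and lists were chosen with earlier results of these data known. Alternatives were DESeq2 (1.42.0) size factors and Wald test, no filter, other blocks and leaving out each mouse. Some genes that entered the counts are not reported here by name.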

Additional observations from a re-analysis of the deposited data

Results flagged for a closer look

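In 12 of 127 named genes 1 of the 6 pair differences (log2) lay apart from the others, where chance gives about 1 in 20. The ratio of that pair's gap to the whole range, which passed Dixon's 95% critical value for 6 values, follows for each gene. The CD26-negative pair of mouse 1 stood apart for Dpp4 (0.832), Pecam1 (0.822), Epcam (0.765), Selp (0.713), Krt18 (0.694) and Cdh5 (0.638), and that of mouse 2 for Ptprc (0.740) and En1 (0.660), where the difference was 1.86 against a median of 0.93 in the other pairs. The CD26-negative pair of mouse 3 stood apart for Pappa2 (0.756). The CD26-positive pair of mouse 1 stood apart for Foxc1 (0.732) and Frzb (0.675), and that of mouse 2 for Wif1 (0.626).

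The GFP contrast differed between NFs and CAFs by edgeR's test of the difference, given here on the log2 scale as NFs minus CAFs. It was above 0 for Shisa6 (1.22), Edil3 (1.10), Sox11 (0.87), Sort1 (0.87), Prkar2b (0.72), Abca8b (0.51) and Adgre5 (0.44). It was below 0 for Tnni2 (-4.92), Ldb3 (-1.98), Lgr5 (-1.69), Vwf (-1.49), Des (-1.45), Pappa2 (-1.41) and Tbx3 (-0.70).

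Between the CD26 classes, the contrast in CD26-positive minus that in CD26-negative pairs was 5.80 for Trdn, 5.26 for Atp2a1, 4.54 for Acta1, 4.39 for Mylpf, 3.26 for Padi2, 1.98 for Tnnt3, 1.41 for Cd24a and 0.60 for Fads6. It was -0.62 for both Akr1c14 and CT010467.1.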

How the results depend on the processing

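Values are numbers of genes called in the 6 pairs (556), higher (185), lower (371) and past an absolute log2 fold change of 2 (29), then between En1+ and double- (474), between double+ and CD26+ (189), for the class difference (14) and for NFs minus CAFs (31), in that order. DESeq2's Wald test gave 302, 96, 206 and 13, then 215, 108 and 48 without the class difference, which stayed within 1.5 times. Without a filter on low counts they were 1022, 350, 672 and 66, then 824, 372, 157 and 366. With no replicate block they were 2, 1, 1 and 2, then 0, 0, 0 and 0 by edgeR (214, 62, 52 and 110 at an unadjusted p under 0.05). With mouse as the only replicate block they were 41, 7, 34 and 17, then 22, 1 and 0 (288 at an unadjusted p under 0.05 for the class difference). With the replicate block and all paired libraries in the fit they were 125, 31, 94 and 10, then 78, 10 and 3. With the replicate block on counts summed per mouse, 284, 71 and 213 were called. Leaving out each mouse gave ranges of 267 to 558, 81 to 170, 184 to 388, 26 to 36, 218 to 444, 56 to 262, 10 to 20 and 5 to 9. DESeq2 size factors kept every count within 1.5 times. The cause of these shifts was not tested, beyond the fewer samples of the last set. No named gene turned its direction. Of 127 named genes 42, 21 and 41 changed from called to not called without mouse 1, 2 and 3, 48 under the Wald test, 29 on counts summed per mouse, 79 with all paired libraries in the fit, 95 with mouse as the only block and 118 without the block. Zic1 was called under all 10 alternatives. At these depths a gene without a count in 6 libraries could still be present below 0.0370 CPM.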
